A study of Mus musculus with 6 samples.

Results

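CXC chemokines are small secreted or membrane-tethered proteins that guide leukocytes along concentration gradients, and their receptors are G protein-coupled receptors on the leukocytes and on some tissue cells. In the liver, injured hepatocytes, stellate cells, macrophages and endothelium can all release CXC ligands. One branch draws neutrophils through Cxcr2, another is induced by interferon and draws T cells, and Cxcl12 holds and guides cells that carry Cxcr4. The 10 genes described here are the ligands Cxcl1, Cxcl2, Cxcl5, Cxcl9, Cxcl10, Cxcl12, Cxcl13 and Cxcl16 and the receptors Cxcr2 and Cxcr4. They were found by exact gene symbol among the 24318 rows of the expression table, and all 10 were present.

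RNA from whole mouse liver was sequenced in 6 libraries. Knockout livers, 3 libraries, came from C57BL/6 mice of genotype VEcadCreERT2/TAK1flox/flox after tamoxifen. Control livers, 3 libraries, came from untreated C57BL/6 mice with the same VEcadCreERT2/TAK1flox/flox genotype. The VE-cadherin promoter confines the inducible Cre to cells that use it, chiefly endothelium, and tamoxifen lets that Cre remove loxP-flanked TAK1, a kinase that relays inflammatory receptor signals. Because tamoxifen was given to the knockout mice alone, the deletion and the drug cannot be told apart in any comparison below. Ages were not given in the sources used here. Nothing says that the triplicates are separate animals, so each p-value reflects only how far these libraries scatter, which may be technical. In whole tissue, more or fewer cells of a type and more or less RNA per cell cannot be told apart.

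To show what lies in front of the ligand genes whose levels are compared first, 250 bases upstream of the annotated start are printed for 2 neutrophil-attracting and 2 interferon-inducible ligands, from RefSeq on build GRCm38.p6, 5′ to 3′ on the strand of the gene. The authors aligned to another build, and these positions refer to GRCm38.p6 only. The windows are chr5:90890995-90891244 (plus strand) for Cxcl1, chr5:90903649-90903898 (plus strand) for Cxcl2, chr5:92328080-92328329 (minus strand) for Cxcl9 and chr5:92348890-92349139 (minus strand) for Cxcl10. Capitals mark matches to a kB pattern, GGGNNNNNCC on either strand with overlapping matches joined, and, in Cxcl10, also 1 match to an interferon response pattern, GAAANNGAAA.
Cxcl1: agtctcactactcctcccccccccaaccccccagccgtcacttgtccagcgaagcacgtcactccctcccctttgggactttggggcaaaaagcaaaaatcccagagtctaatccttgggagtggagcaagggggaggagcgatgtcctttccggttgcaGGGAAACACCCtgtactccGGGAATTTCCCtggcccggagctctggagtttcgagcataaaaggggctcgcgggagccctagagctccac
Cxcl2: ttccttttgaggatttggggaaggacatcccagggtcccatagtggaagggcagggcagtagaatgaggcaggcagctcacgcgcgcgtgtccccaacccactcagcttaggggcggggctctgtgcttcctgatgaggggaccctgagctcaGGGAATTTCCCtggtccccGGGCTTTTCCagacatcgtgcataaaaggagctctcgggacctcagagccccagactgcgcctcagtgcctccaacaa
Cxcl9: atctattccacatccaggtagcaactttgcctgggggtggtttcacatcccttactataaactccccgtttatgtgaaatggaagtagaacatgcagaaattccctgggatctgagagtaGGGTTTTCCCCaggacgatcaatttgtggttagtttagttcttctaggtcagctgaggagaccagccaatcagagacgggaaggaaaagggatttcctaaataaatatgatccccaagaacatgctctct
Cxcl10: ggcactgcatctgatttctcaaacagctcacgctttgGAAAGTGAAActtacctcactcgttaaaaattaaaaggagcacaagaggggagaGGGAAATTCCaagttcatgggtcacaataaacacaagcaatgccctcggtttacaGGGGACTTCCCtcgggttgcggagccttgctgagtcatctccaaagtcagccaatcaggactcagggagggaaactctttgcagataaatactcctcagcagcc
The pattern GGGNNNNNCC was found in 7 of the 8 members with a window (all but Cxcr4) and in 45.8% of all 32851 windows of the same length, so the pattern alone is common. The exact stretch GGGAATTTCC was found in Cxcl1, at -71 to -62 from the start, and in Cxcl2, at -97 to -88. It was also found in the related gene Cxcl3, and in 0.0852% of all windows. The overlapping stretch GGAATTTCCC was found in Cxcl1, Cxcl2, Cxcl3 and, on the other strand, also in Cxcl10, and in 0.0974% of all windows. GAAANNGAAA was found in Cxcl10 alone among the 8, at -213 to -204 from the start, and in 2.98% of all windows. These matches describe letters and not bound sites.

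The values are FPKM, which scales sequenced fragments by library size and by the length of the transcript, so they can be compared between genes as levels per length. Relative to control 1, the estimated depth was 0.921 to 1.04 in the knockout libraries and 0.964 and 1.08 in controls 2 and 3. Absolute depth is unknown. Map3k7, the gene of TAK1, measured 9.28, 9.31 and 7.345 FPKM in knockout libraries and 8.498, 9.02 and 9.14 FPKM in control libraries, with a log2 fold change of -0.04 ± 0.16 (SE, limma adjusted p = 0.868). Cells without the Cre also express Map3k7, so in whole liver this value does not check the labels. Abundant hepatocyte RNA fitted the labelled tissue: the plasma carrier Ttr stood at 2410 to 2627 FPKM in knockout and 4945 to 7264 FPKM in control libraries. The albumin gene Alb, also a hepatocyte marker, was listed at 55705 to 73306 FPKM in knockout libraries but at 0 in all controls. It was left out as a possible failed estimate. Among the 11842 genes tested, 1669 were higher in knockout and 1534 lower, at an adjusted p under 0.05, and the median log2 fold change was -0.00071. Higher genes thus made up 52.1% of the calls, and 39.5% when libraries were rescaled to equal summed FPKM, which moved the median of all genes to -0.1.

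Knockout livers had much more RNA of the receptors Cxcr2 and Cxcr4, more of the neutrophil attractant Cxcl1, and less of Cxcl12, which had the highest mean of the 10 genes in both groups, although Cxcl1 exceeded it in knockout 1. Of the 9 members tested, 3 were called higher and 1 lower in knockout, where 14.1% of all tested genes were called higher and 13% lower. The 5 not called were Cxcl2, Cxcl9, Cxcl10, Cxcl13 and Cxcl16, and Cxcl5 was too low to be tested. Cxcl2 and Cxcr2 reached the minimum mean of 0.5 FPKM through their knockout libraries. All 3 knockout libraries lay above all controls for Cxcl1, Cxcr2 and Cxcr4, as for 22.4% of all tested genes, and below all controls for Cxcl12, as for 21.1%. The median log2 fold change of the 9 was 0.81. Fold changes are on the log2(FPKM + 0.5) scale throughout, which understates changes of genes at low level, and each is given as knockout over control with its standard error and the adjusted p of limma with Benjamini-Hochberg adjustment over all genes tested.

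**Figure D1:**
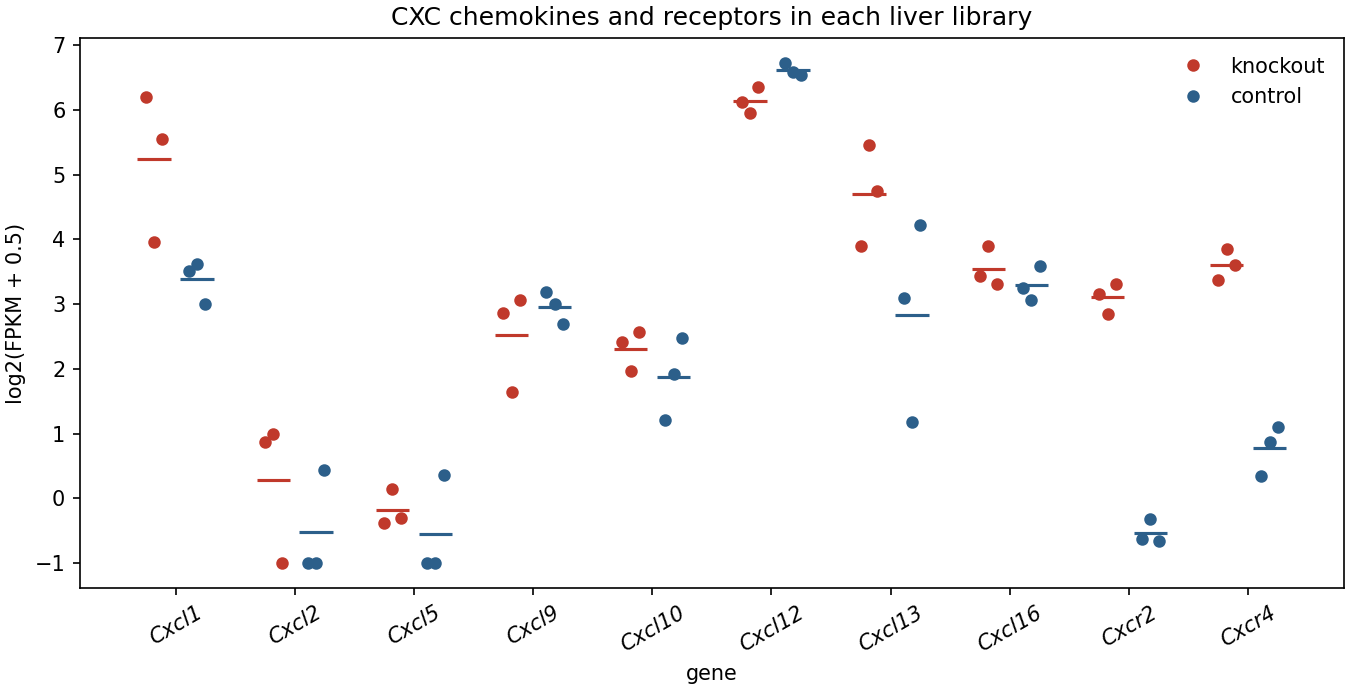
Level of each of the 10 genes in each library, as log2(FPKM + 0.5) on the vertical axis, with 3 knockout libraries (red) left of 3 control libraries (blue) and a line at each group's mean. Cxcr2 and Cxcr4 show the widest gaps between groups, Cxcl12 is the one gene whose knockout points all lie below its controls, and points at -1 are libraries where the gene is listed at 0.

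Cxcl1 belongs to the ligands with the ELR motif, which bind Cxcr2 and recruit neutrophils, and it is an early product of liver cells exposed to interleukin-1 or TNF. It measured 72.7, 15.1 and 46.5 FPKM in knockout libraries 1, 2 and 3, against 10.85, 11.8 and 7.55 FPKM in control libraries 1, 2 and 3. The groups did not overlap, but knockout 2 stood close to the controls and the knockout libraries spanned a 4.82-fold range, against 1.57-fold in the controls. The means were 44.8 ± 28.8 FPKM in knockout and 10.1 ± 2.25 FPKM in control livers (SD, n = 3 each). The log2 fold change was 1.86 ± 0.47 (adjusted p = 0.0177). It kept its direction but lost the call without knockout 1 (1.38, adjusted p = 0.0548), without knockout 3 (1.70, adjusted p = 0.0612) or without control 3 (1.67, adjusted p = 0.0611), and stood at 2.50 without knockout 2.

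Cxcl2 and Cxcl5, which also signal through Cxcr2, were near the limit of detection. Cxcl2 stood at 1.34, 1.48 and 0 FPKM in knockout libraries and at 0, 0 and 0.857 FPKM in control libraries. If the steps between its values are single fragments, these correspond to 3, 3 and 0 fragments in knockout and 0, 0 and 2 in control libraries. The groups overlapped, and the log2 fold change of 0.81 had a 95% confidence interval from -0.55 to 2.17 (adjusted p = 0.36). Cxcl5 stood at 0.272, 0.606 and 0.308 FPKM in knockout libraries and at 0, 0 and 0.786 FPKM in control libraries, again overlapping. Cxcl1 and Cxcl2, which share the stretch GGGAATTTCC, therefore lay far apart in level in these livers. In GRCm38 transcripts Cxcl1 shared no stretch of 50 bases with Cxcl2 or Cxcl3, while Cxcl2 shared 3.28% of its own with Cxcl3, so some Cxcl2 fragments may be shared with that gene.

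Cxcl9 and Cxcl10 are induced by interferon-gamma and attract activated T and NK cells through Cxcr3. Neither was called, and their estimates lay on opposite sides of 0. Cxcl9 measured 6.78, 2.63 and 7.85 FPKM in knockout libraries and 8.62, 7.51 and 5.96 FPKM in control libraries. Knockout 2 was the lowest of the 6, while the other knockout libraries lay within the control range. Its log2 fold change was -0.44 ± 0.34 (interval -1.21 to 0.34, adjusted p = 0.386). Cxcl10 measured 4.81, 3.40 and 5.42 FPKM in knockout libraries and 1.82, 3.30 and 5.05 FPKM in control libraries, with a log2 fold change of 0.44 ± 0.32 (interval -0.28 to 1.17, adjusted p = 0.347). The Cxcl10 groups overlapped because control 3 stood beside the knockout libraries.

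Cxcl12 is made constitutively by stromal and endothelial cells and holds leukocytes and progenitors that carry Cxcr4. It measured 68.9, 61.3 and 81.5 FPKM in knockout libraries, against 105.3, 95.05 and 92.2 FPKM in control libraries. Every knockout library lay below every control, with means of 70.6 ± 10.2 FPKM in knockout and 97.5 ± 6.88 FPKM in control livers (SD, n = 3 each). The log2 fold change of -0.47 ± 0.14 passed the threshold (adjusted p = 0.0387) and kept its sign in all 16 alternatives. The call is close to the threshold. It held in 9 of 16 alternatives and was lost without knockout 1 (adjusted p = 0.0953), knockout 2 (0.1), control 1 (0.134), control 2 (0.1) or control 3 (0.0535), and under 2 of the 10 settings with all 6 libraries (adjusted p of 0.0664 and 0.09).

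Cxcl13 attracts B cells and organises lymphoid follicles, and Cxcl16 is a membrane-bound chemokine and scavenger receptor that can be shed. Cxcl13 measured 14.3, 43.2 and 26.3 FPKM in knockout libraries and 8.08, 1.77 and 18.1 FPKM in control libraries. It varied more between controls than any other member that had a value above 0 in all of them, by 10.25-fold, and control 3 lay above knockout 1. The log2 fold change of 1.86 ± 0.67, of about the size of that of Cxcl1, did not pass (interval 0.36 to 3.37, adjusted p = 0.0673). It passed without control 3 (2.55, adjusted p = 0.018) and was 1.04 without control 2 (adjusted p = 0.164), and the control mean of 9.32 FPKM became 4.93 FPKM without control 3. Cxcl16 measured 10.2, 14.3 and 9.43 FPKM in knockout libraries and 9.03, 7.83 and 11.6 FPKM in control libraries, with overlapping groups and a log2 fold change of 0.24 ± 0.21 (interval -0.23 to 0.72, adjusted p = 0.434). Of the 2699 exon bases of Cxcl16, 552 overlap Zmynd15 on the opposite strand. Whether fragments were counted by strand was not given in the sources used here, so fragments of the overlap may belong to either gene.

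The receptors showed the largest differences of the 10 genes. Cxcr2, the neutrophil receptor for ELR ligands, measured 8.41, 6.73 and 9.38 FPKM in knockout libraries, against 0.146, 0.304 and 0.135 FPKM in control libraries. By its mean it was the lowest of the 10 in controls, where Cxcl2 and Cxcl5 were at 0 in 2 of 3 libraries, and ranked above Cxcl9, Cxcl10, Cxcl2 and Cxcl5 in knockout livers, though its range there overlapped that of Cxcl9. The means, 8.17 ± 1.34 FPKM in knockout and 0.195 ± 0.0944 FPKM in control livers (SD, n = 3 each), gave a ratio of 41.9. On the log2(FPKM + 0.5) scale the difference was 3.64 ± 0.24 (adjusted p = 3.07e-05). That value depended on the pseudocount, at 4.84 with 0.1 and 2.93 with 1. Read as fragment steps, the control values correspond to 1, 2 and 1 fragments, so the size of the ratio rests on very few control fragments.

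Cxcr4, the receptor of Cxcl12 on leukocytes, endothelial tip cells and progenitors, measured 9.83, 14.0 and 11.7 FPKM in knockout libraries, against 0.769, 1.33 and 1.66 FPKM in control libraries. The lowest knockout library stood well above the highest control. Means were 11.8 ± 2.07 FPKM in knockout and 1.25 ± 0.449 FPKM in control livers, a ratio of 9.45, and the log2 fold change was 2.84 ± 0.25 (adjusted p = 0.000128). Both receptors were called in all 16 alternatives, with adjusted p no higher than 0.00052 for Cxcr2 and 0.00114 for Cxcr4.

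**Figure D2:**
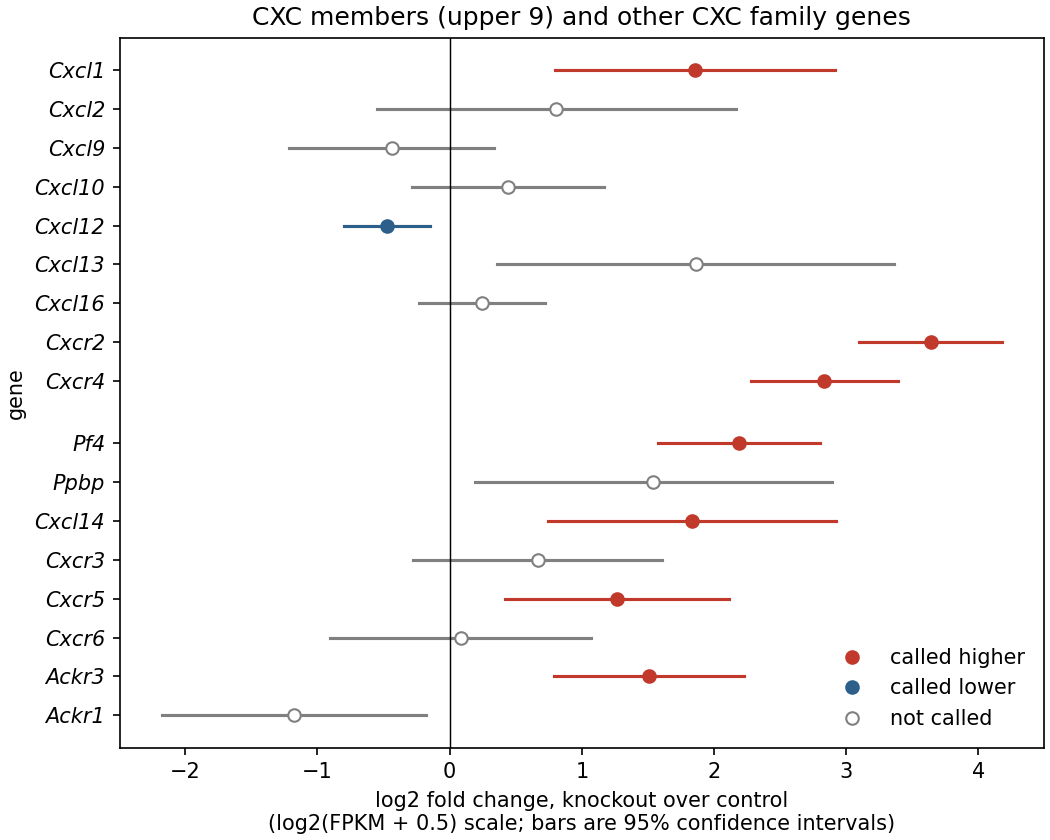
Log2 fold change of knockout over control on the log2(FPKM + 0.5) scale, with 95% confidence intervals, for the 9 tested members (upper block) and the 8 tested other CXC family genes (lower block). Filled red and blue points were called higher and lower, open points were not called, and the intervals of Cxcr2, at 3.64, and Cxcr4, at 2.84, are the farthest from 0.

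**Figure D3:**
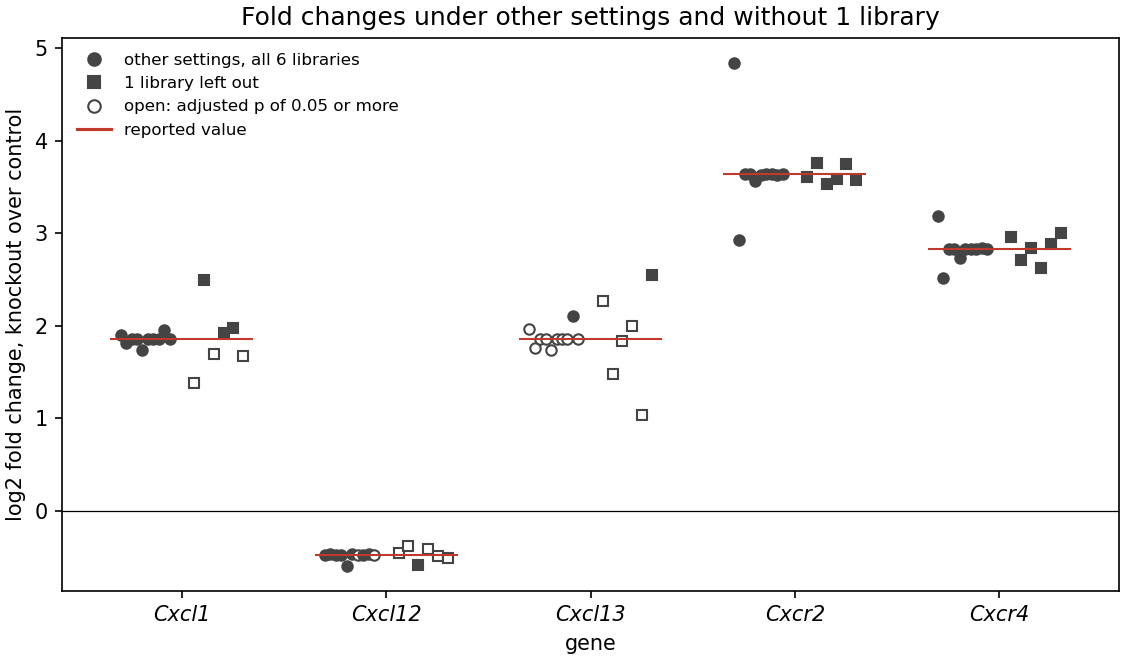
Log2 fold changes of 5 members under other settings with all 6 libraries (circles) and with 1 library left out (squares), with open symbols where the adjusted p was 0.05 or more and a red line at the reported value. All symbols of Cxcr2 and Cxcr4 are filled, those of Cxcl1 and Cxcl12 are mixed, and those of Cxcl13 are open but for 2.

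The makeup of the ligand RNA differed between groups. The FPKM of the 8 ligands summed to 179, 142 and 177 in knockout libraries and 144, 127 and 142 in control libraries. Cxcl12 made up 42.5% ± 3.84 of that sum in knockout and 71.0% ± 5.30 in control livers (SD, n = 3 each), with no overlap. The other ligands' shares differed between knockout libraries. Cxcl1 made up 40.5% of the sum in knockout 1, above the 38.4% of Cxcl12, and 26.2% in knockout 3. In knockout 2 Cxcl13 made up 30.4% and Cxcl1 10.6%. In control livers Cxcl1 made up 7.39% ± 2.0 and Cxcl13 6.57% ± 5.71. In order of mean level, knockout livers had Cxcl12, Cxcl1 and Cxcl13, then Cxcr4 and Cxcl16, then Cxcr2, Cxcl9 and Cxcl10, then Cxcl2 and Cxcl5. The range of Cxcl1 overlapped those of Cxcl12 and Cxcl13, which did not overlap each other. The lowest Cxcl13 value, 14.33 FPKM in knockout 1, lay just under the highest Cxcl16 value, 14.34 FPKM in knockout 2. Control livers had Cxcl12 clear of all others, then by mean Cxcl1, Cxcl16, Cxcl13 and Cxcl9, with each range overlapping the next. Cxcl10 came after these, and the 4 others below.

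**Figure D4:**
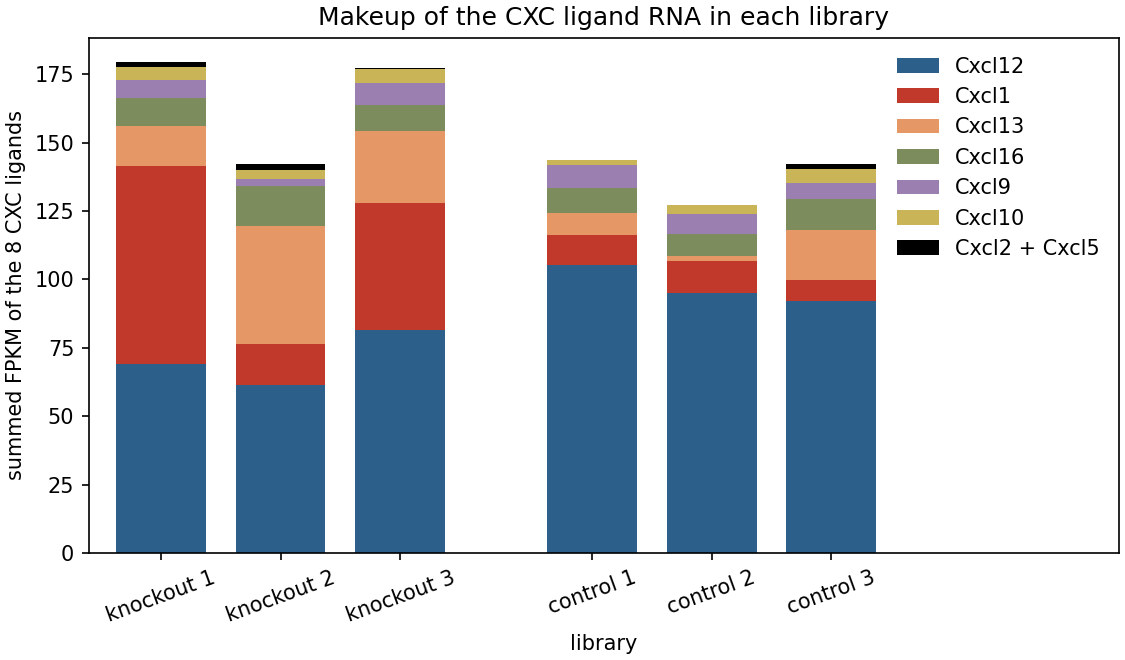
Summed FPKM of the 8 CXC ligands in each library, stacked by gene, with the 3 knockout libraries on the left and the 3 control libraries on the right. Cxcl12 fills 64.9% to 74.7% of each control bar and 38.4% to 46.0% of each knockout bar, and Cxcl1 is the largest block in knockout 1 (40.5%) while Cxcl13 is the second in knockout 2 (30.4%).

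Receptor and ligand levels stood in different proportion in the 2 groups. Cxcr2 and Cxcr4 together measured 18.2, 20.7 and 21.1 FPKM in knockout libraries and 0.915, 1.63 and 1.79 FPKM in control libraries. Cxcr4 equalled 17.1% ± 4.91 of the Cxcl12 level in knockout and 1.31% ± 0.541 in control livers (SD, n = 3 each). Set against S100a8, a calgranulin abundant in neutrophils, Cxcr2 stood at 1.19%, 0.91% and 1.34% of its level in knockout libraries and 1.09%, 1.89% and 0.309% in control libraries, so this proportion overlapped between groups. Set against Csf3r, the receptor of the neutrophil growth factor G-CSF, Cxcr2 stood at 0.842, 0.791 and 0.997 times its level in knockout and 0.0765, 0.434 and 0.108 times in control libraries, with no overlap. In control libraries both proportions rest on the 1, 2 and 1 Cxcr2 fragments read above, so their size there is uncertain.

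Markers of several cell types moved with these genes, and their part in the differences was not tested. The counts of called markers stand beside 14.1% of all tested genes called higher and 13% called lower, and lists with 1 or 2 calls are near those shares or too short to set against them. All 11 measured neutrophil markers were higher in knockout, at a summed 1730 to 1820 FPKM in knockout and 37.2 to 76.3 FPKM in control libraries. All 8 monocyte markers were higher, at 595 to 724 FPKM in knockout and 89.2 to 279 FPKM in control libraries. Of 7 tested B and plasma cell markers 5 were higher, at 16.3 to 32.7 FPKM in knockout and 2.78 to 7.21 FPKM in control libraries, with Pax5 and Cr2 at 0 in all controls. Of 8 tested T and NK cell markers, which include cells that answer Cxcl9 and Cxcl10, 2 were higher, at 13.8 to 16.1 FPKM in knockout and 3.91 to 8.34 FPKM in control libraries. Among cells that make Cxcl12, 7 of 8 sinusoidal endothelial markers were lower, at 32.9 to 35.4 FPKM in knockout and 150 to 220 FPKM in control libraries. For general endothelium 5 of 9 were lower, at 54.2 to 62.4 FPKM in knockout and 72.2 to 122 FPKM in control libraries. For stellate cells and fibroblasts 6 of 10 were higher, at 418 to 545 FPKM in knockout and 272 to 332 FPKM in control libraries. Markers of several leukocytes were thus higher, and markers of sinusoidal endothelium lower, in the same libraries. The sinusoidal lectin Clec4g was at 0.381, 0 and 0 FPKM in knockout libraries, against 44.4, 63.8 and 56.5 FPKM in control libraries. Hepatocyte markers without Alb were lower for 5 of 9 tested, at a summed 9460 to 11400 FPKM in knockout and 15000 to 20600 FPKM in control libraries. Alb was listed at 55705 to 73306 FPKM in knockout libraries and at 0 in all controls. Counting it would turn the direction of this sum, and it was left out as a possible failed estimate. Cholangiocyte markers stood at 41.3 to 52.0 FPKM in knockout and 29.9 to 45.0 FPKM in control libraries, with 1 higher and 1 lower of 5 tested. Kupffer cell markers were higher for 4 of 8 tested, at 987 to 1180 FPKM in knockout and 449 to 957 FPKM in control libraries. Dendritic cell markers were higher for 1 of 3, at 4.96 to 6.47 FPKM in knockout and 0.925 to 2.75 FPKM in control libraries.

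The rest of the CXC family was examined gene by gene. Of the 13 other family genes, 8 could be tested, and 4 were higher and 0 lower in knockout, where 14.1% of all tested genes were higher and 13% lower. Pf4, a platelet CXC chemokine, averaged 16.3 ± 3.06 FPKM in knockout and 3.32 ± 1.36 FPKM in control livers (log2 fold change 2.19 ± 0.27, adjusted p = 0.000646). Platelet markers, a list that includes Pf4 and Ppbp, summed to 24.2 to 32.8 FPKM in knockout and 4.18 to 14.0 FPKM in control libraries, with 4 of 6 higher. Pf4 and Ppbp supply most of that sum in every library, so it largely repeats their own values. Those called were Pf4, Gp9, Itga2b and Tubb1, and Gp9 and Tubb1 reached the minimum mean through their knockout libraries. Ppbp, the other platelet chemokine, measured 4.47, 2.98 and 6.55 FPKM in knockout libraries and 0.464, 0.482 and 4.73 FPKM in control libraries. Its log2 fold change of 1.54 was not called (adjusted p = 0.0869), and it passed without control 3 (2.35, adjusted p = 0.00253) and, with all 6 libraries, under library weights (adjusted p = 0.0244).

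Cxcl14, a chemokine of epithelial and stromal cells, measured 2.93, 3.81 and 8.84 FPKM in knockout libraries and 1.27, 1.85 and 0.235 FPKM in control libraries. Its log2 fold change was 1.83 ± 0.48 (adjusted p = 0.0209), and the call was lost without knockout 3 (adjusted p = 0.0716) or control 3 (0.0513). Ackr3, a scavenging receptor that takes up Cxcl12, measured 1.51, 1.45 and 1.47 FPKM in knockout libraries and 0, 0.234 and 0.417 FPKM in control libraries (log2 fold change 1.51 ± 0.32, adjusted p = 0.00778). Read as fragment steps, the Ackr3 control values correspond to 0, 1 and 2 fragments. Like Cxcr2, the receptors Ackr3, Cxcr3 and Cxcr5 reached the minimum mean through their knockout libraries. Ackr1, a decoy receptor on venular endothelium, stood at 0, 0.913 and 0.927 FPKM in knockout libraries and 1.28, 2.66 and 1.58 FPKM in control libraries. Read as fragment steps, these correspond to 0, 2 and 2 against 3, 6 and 4 fragments. The groups did not overlap, and the log2 fold change of -1.18 was not called (adjusted p = 0.0778). It passed with library weights (adjusted p = 0.0458) and when rescaled to equal summed FPKM (adjusted p = 0.0498).

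The receptors for the other ligands were low. Cxcr5, the B cell receptor for Cxcl13, measured 1.48, 1.84 and 0.934 FPKM in knockout libraries and 0.344, 0 and 0.635 FPKM in control libraries, with no overlap. Its log2 fold change was 1.26 ± 0.38 (adjusted p = 0.0341), a call lost without knockout 1, knockout 2, control 1 or control 2, at an adjusted p of up to 0.105, and with a pseudocount of 0.1 (adjusted p = 0.0625). Cxcr3, the receptor for Cxcl9 and Cxcl10, measured 1.69, 1.56 and 0.318 FPKM in knockout libraries and 0.586, 0.608 and 0.271 FPKM in control libraries and was not called (log2 fold change 0.67, interval -0.28 to 1.60, adjusted p = 0.276). It passed when knockout 3 was left out (adjusted p = 0.0405). Cxcr6, the receptor for Cxcl16, measured 0.704, 2.09 and 2.39 FPKM in knockout libraries and 2.69, 1.52 and 0.677 FPKM in control libraries. Its interval ran from -0.91 to 1.07 around 0.08 (adjusted p = 0.912), with a sign that turned under 5 alternatives. Cxcr1, a second receptor for some ELR ligands, stood at 0.426, 0.473 and 0.480 FPKM in knockout libraries and at 0 in all controls. It was too low to be tested, and read as fragment steps its knockout values correspond to 1 fragment each. Cxcl3 and Cxcl11 were also below the test limit, and Cxcl15 and Cxcl17 were at 0 in all 6 libraries.

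Genes that act upstream and downstream of these ligands were described as lists, by counts beside the 14.1% higher and 13% lower of all tested genes. A list of cytokines, receptors and NF-kB components linked to CXC ligand induction had 17 tested genes. Of these, 9 were higher and 0 lower, with a median log2 fold change of 0.65. The 9 include Nfkbia and Tnfaip3, whose products inhibit NF-kB. Il1b, a strong inducer of Cxcl1, measured 9.11, 6.62 and 9.89 FPKM in knockout libraries and 2.55, 1.51 and 0.337 FPKM in control libraries (log2 fold change 2.37 ± 0.42, adjusted p = 0.00333). Nfkbiz, a nuclear NF-kB cofactor, had a log2 fold change of 2.27 ± 0.19 (adjusted p = 9.65e-05). Tnfaip3, a feedback inhibitor of NF-kB, had one of 2.25 ± 0.31 (adjusted p = 0.00103). Relb, a subunit of the alternative NF-kB pathway, was called at 1.27 ± 0.40 (adjusted p = 0.0415) but in 6 of 16 alternatives only, and of the libraries left out in turn it kept the call without control 3 alone. Il17a, another inducer of Cxcl1, was at 0 in all libraries.

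Of 17 tested genes of the interferon-gamma axis, 3 were higher and 0 lower (median 0.42). These were the receptor chains Ifngr1 (log2 fold change 1.68 ± 0.17, adjusted p = 0.000259) and Ifngr2 (0.85 ± 0.18, adjusted p = 0.00802) and the transcription factor Irf8 (1.61 ± 0.28, adjusted p = 0.00302). Ifng itself was at 0 in all knockout libraries and at 0.407, 0 and 0.377 FPKM in control libraries. Of 6 tested genes of the lymphotoxin axis, which induces Cxcl13 in lymphoid stroma, 2 were higher and 0 lower (median 0.92). Ltb, the membrane anchor of lymphotoxin, rose by a log2 fold change of 1.81 ± 0.30 (adjusted p = 0.0026). Ccr7, a homing receptor of lymphocytes and dendritic cells, was called at 1.38 ± 0.40 (adjusted p = 0.0301), and not without knockout 1, knockout 3 or control 2 (adjusted p up to 0.0933). Lta, Ccl19 and Ccl21a were at 0 in all 6 libraries.

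Of 25 genes in a list of chemokine receptor signalling, 18 were higher and 0 lower (median 0.99). Beside signal carriers inside the cell, the list holds the surface receptors Fpr1, Fpr2 and Cd74, the secreted Mif and the integrin genes Itgam and Itgb2. All of these named genes were called higher. Neutrophils adhere through an integrin of the Itgam and Itgb2 products once a chemokine has acted. Itgam had a log2 fold change of 3.09 ± 0.49 (adjusted p = 0.00197, and 3.75 without control 3) and Itgb2 one of 1.99 ± 0.26 (adjusted p = 0.00084). The G protein subunit Gng2 was higher by 1.85 ± 0.32 (adjusted p = 0.00306) and the kinase subunit Pik3r5 by 1.82 ± 0.32 (adjusted p = 0.00318). Of 14 genes of neutrophil release and adhesion, 11 could be tested, and 9 were higher and 0 lower (median 1.73). Selplg, a selectin ligand that lets leukocytes roll on endothelium, had a log2 fold change of 2.96 ± 0.17 (adjusted p = 1.81e-05). The growth factor receptor Csf3r was higher by 2.51 ± 0.27 (adjusted p = 0.000303) and Csf2rb by 2.24 ± 0.23 (adjusted p = 0.000241). Csf3, the gene of G-CSF, stood at 0.340, 0 and 0 FPKM in knockout libraries and at 0 in all controls.

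Proteases that trim or shed CXC ligands were higher for 8 and lower for 1 of 12 (median 1.22). The neutrophil collagenase Mmp8 measured 15.2, 11.4 and 12.4 FPKM in knockout libraries and 0.184, 0.191 and 0.340 FPKM in control libraries (log2 fold change 4.19 ± 0.22, adjusted p = 9.79e-06). Mmp9, whose product cleaves several CXC ligands, measured 14.2, 11.8 and 17.6 FPKM in knockout libraries and 0.420, 0.436 and 0.129 FPKM in control libraries (4.19 ± 0.25, adjusted p = 1.97e-05). Ctsg, a serine protease of neutrophil granules, stood at 12.7 to 16.3 FPKM in knockout and 0 to 1.41 FPKM in control libraries. Elane, neutrophil elastase, stood at 5.51 to 14.5 FPKM in knockout and 0 to 2.09 FPKM in control libraries. Mmp8, Mmp9, Elane and the Csf3r named above also stand in the neutrophil marker list. The 1 lower gene was Cpn1, a hepatocyte carboxypeptidase subunit, at -0.57 ± 0.15 (adjusted p = 0.0195), a call lost without knockout 1, control 1 or control 2 (adjusted p up to 0.0847). Of the sheddases that release Cxcl16, Adam10 was called at 0.65 ± 0.19 (adjusted p = 0.0315), a call lost without any 1 library but control 3 (adjusted p up to 0.115), and Adam17 was not called (0.31, adjusted p = 0.32).

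Of 11 genes in a list of oxygen sensors, genes they induce, the transcription factor Foxo1 and the VEGF receptor Kdr, 8 were higher and 1 lower (median 0.98). Low oxygen is known to raise Cxcr4 and Cxcl12, but Foxo1, 1 of the 8 higher, and Kdr, the 1 lower, are not oxygen sensors. The peptide gene Adm (log2 fold change 2.62 ± 0.26, adjusted p = 0.000225), the prolyl hydroxylase Egln3 (1.97 ± 0.18, adjusted p = 0.000167) and the glucose transporter Slc2a1 (1.89 ± 0.28, adjusted p = 0.00147) were higher. The 2 not called were the transcription factors Hif1a (-0.25 ± 0.18, adjusted p = 0.339) and Epas1 (0.30 ± 0.14, adjusted p = 0.149). Kdr, an endothelial gene that is also among the endothelial markers, measured 1.30, 1.11 and 1.73 FPKM in knockout libraries and 11.1, 7.69 and 18.1 FPKM in control libraries (-2.70 ± 0.30, adjusted p = 0.000375).

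**Figure D5:**
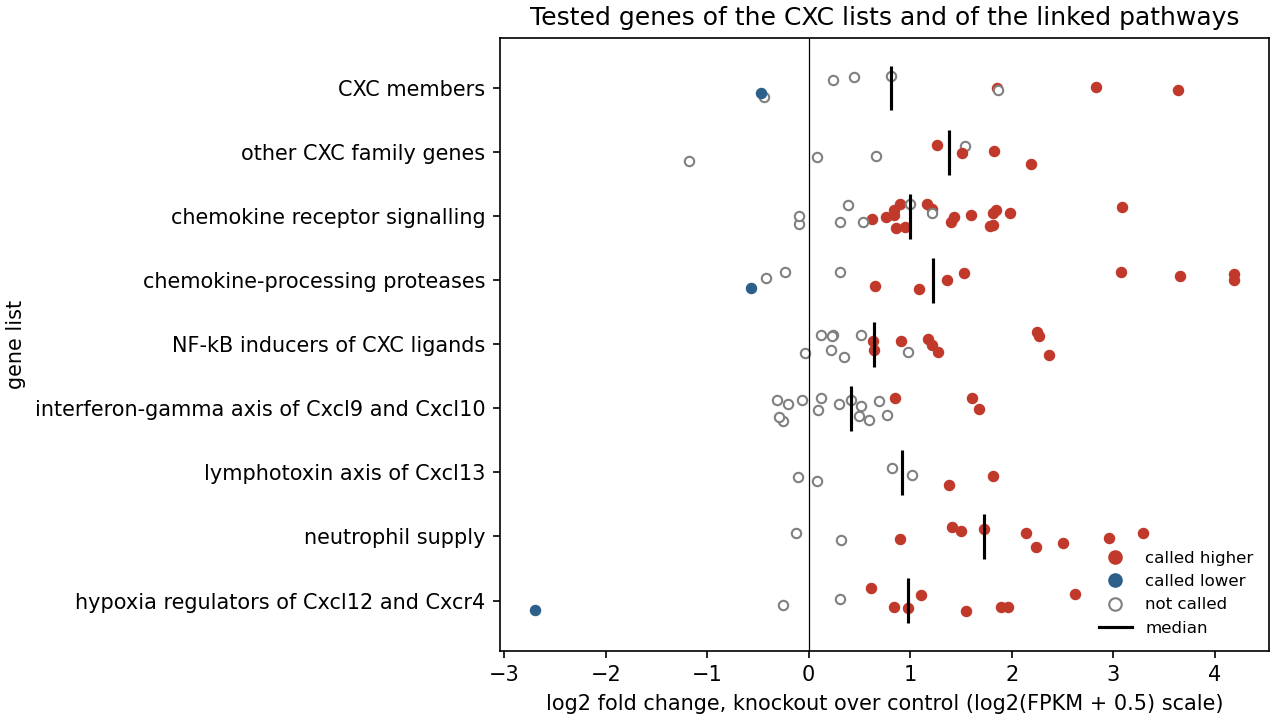
Log2 fold change of knockout over control for every tested gene of the CXC lists and of the 7 linked lists, 1 row a list, with a black line at the list's median. Filled red and blue points were called higher and lower and open points were not called, and medians run from 0.42 for the interferon-gamma axis to 1.73 for neutrophil supply.

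The genes with the most similar pattern over the 6 libraries were found for each called member by the root mean square difference in log2(FPKM + 0.5) after centring each gene on its own mean, among 11298 genes. Cxcr2 was nearest to Cd177, a neutrophil surface gene, at 0.174 log2 units, followed by Asprv1 (0.213) and F13a1 (0.29), and Cd177 and Asprv1 were the 2 genes closer than 0.25 log2 units. Cxcr4 was nearest to the chemokine Ccl6 (0.144), the matrix enzyme gene Loxl2 (0.165) and the leukocyte adaptor Pstpip1 (0.187), with 8 genes that close. Cxcl1 had 0 genes that close and was nearest to Il1f9 (0.384), an interleukin-1 family cytokine, Ptafr (0.399) and Prmt2 (0.443). Il1f9, like Cxcl1, had its lowest knockout value in knockout 2, at 1.64, 0.305 and 2.48 FPKM in knockout libraries and 0 in all controls. Cxcl12, with its small difference, had 2195 genes that close, led by Got2 (0.039), Nabp2 (0.046) and Mavs (0.046).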

How the data were processed

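Values are gene-level FPKM from 3 knockout and 3 control whole-liver libraries, 1 column per library. The authors made the deposited FPKM table; build mm9 with Cuffnorm 2.2.1, Cuffdiff 2.2.1, TopHat2 2.1.0 and Trimmomatic 0.33 are named, per the submitters' processing notes, while annotation details were not given in the sources used here. FPKM divides by transcript length and mapped fragments, so a few abundant genes can shift all other values, and an exact 0 can be a failed estimate. Alb, at 59068, 73306 and 55705 FPKM in knockout libraries and at 0 in all controls, was left out for that reason, also from the hepatocyte sum. Without counts, neither a count model nor counting intervals could be used. Relative depth came from steps between low values, of which 61.6% to 65.3% lay within 0.01 log2 units of a whole step. Fragment numbers are the smallest whole-number set that fits a gene's values, so multiples of them are possible.

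Genes averaging 0.5 FPKM or more over all 6 libraries were tested two-sided on log2(FPKM + 0.5) by the moderated test of limma 3.58.1 under R 4.3.3, its prior variance following mean expression, with Benjamini-Hochberg adjustment over all 11842 genes and a call at an adjusted p under 0.05. An exact two-sided permutation test of 3 against 3 libraries cannot go below 0.1. The fit was tested on simulated data. The members and lists were chosen with earlier results of these data known. Named genes are the members, the other CXC family genes, Map3k7, cell markers and the 3 nearest patterns of each called member. Up to 4 called genes with the largest change of each list were also named. Ifng, Il17a, Csf3, Adam10, Adam17, Cpn1, Nfkbia, Fpr1, Fpr2, Cd74, Mif, Hif1a, Epas1 and the list genes at 0 were named after their values were seen. The alternatives were 16 in number: other pseudocounts, filters, scalings and variance models, weights per library, a block for the replicate number, and leaving out each library. Promoter windows and gene overlaps are from GRCm38.p6 and GRCm38 and were used for sequence only. Spearman correlations of libraries ranged from 0.96 to 0.963 inside groups and from 0.938 to 0.951 across them. Figures were drawn with matplotlib 3.10.9.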

Additional observations from a re-analysis of the deposited data

How the results depend on the processing

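Cxcr2 and Cxcr4 kept their direction and call under all 16 alternatives. Cxcl1 kept its call under the 10 alternatives with all 6 libraries and lost it in 3 of the 6 fits without 1 library. The count of members lower in knockout, 1 for Cxcl12, became 0 with no variance trend and 0 with a replicate block, and ranged from 0 to 1 without 1 library. The numbers of knockout and control libraries do not pair them: same-numbered libraries correlated at -0.01, -0.000123 and 0.00151 in their deviations from the group means. With the replicate block Cxcl12 had an adjusted p of 0.0664, and 1575 genes were higher and 1385 lower, against 1669 and 1534 without it. The replicate block also ended the call of Cxcr5 (adjusted p = 0.0574) and gave calls to Ppbp (0.0188) and Ackr1 (0.0391). Among all genes, the number lower in knockout ranged from 935 to 1484 without 1 library, with 990 without control 1 and 935 without control 2; fewer libraries were then compared. The sign turned for Cxcl9 without knockout 2 (0.002, in a range down to -0.706 without 1 library), for Map3k7 without knockout 3 (0.062, in a range down to -0.099), and for Cxcr6 when rescaled to equal summed FPKM (-0.006), with library weights (-0.12) and without knockout 2 (-0.08), knockout 3 (-0.16) or control 3 (-0.29, in a range up to 0.476), none of them called; the cause was not tested. Cxcl13 passed with library weights (2.11, adjusted p = 0.0393) and without control 3. Cxcl2 and Cxcl5 rest on a few fragments at most, and depth limits what can be said of them.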
